A study of Mus musculus with 12 samples.

Results

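The S100A genes encode small calcium-binding proteins, and their transcripts were followed in mouse neural cells that lacked p53 and either carried an oncogenic HRas or did not. The genes taken were S100a1, S100a3, S100a4, S100a6, S100a10, S100a11, S100a13 and S100a16, with every probe set of an oligonucleotide array that is annotated to 1 of them and to no other gene. This gave 11 probe sets for 7 of the 8 genes, out of 34945 probe sets annotated to a single gene. All 7 were among the 12835 genes tested. The probe set listing S100a11 names 3 symbols, among them a pseudogene of it, so S100a11 was not analysed here.

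The 12 arrays form 6 groups of 2. NSCL61, OPCL61 and ASTL61 are lines carrying HRasL61, and NSC (neural stem cells), OPC (oligodendrocyte precursor cells) and AST (astrocytes) are the cells they were made from. All 6 groups are p53-/- cells of BL6 mouse brain at embryonic day 14.5, so no group has intact p53. NSC grew without serum as spheres, AST were derived from them with 10% serum over 3 weeks, and OPC with PDGFAA, bFGF and 0.25% serum followed by immunopanning. The lines were electroporated with pCMS-EGFP-HRasL61 and pBabe-neo, selected in neomycin and sorted for GFP, steps that are not stated for the parents. In every comparison of a line with its parent, HRasL61 and those steps cannot be told apart. Whether a line came from 1 clone, and which promoter drove HRasL61, is not given in the sources used here. Nothing states that the 2 arrays of a group came from separate cultures, so p-values measure the spread between these arrays, which may be technical.

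S100 proteins are dimers built from EF-hands, helix-loop-helix motifs that bind calcium. When calcium rises they open a surface and grip target proteins, such as annexins at membranes, myosin in the cell cortex, or receptors after release from the cell. In the brain S100B is the best known member, long used to mark astrocytes and cells of the oligodendrocyte lineage, while S100A4, S100A6 and S100A10 are studied in motile and tumour cells. Most of the S100A genes lie side by side on mouse chromosome 3.

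Values are log2 signals as deposited, and differences are log2 differences ± SE from limma, with p adjusted over all 12835 genes. Signals under 5.183, the median of all values, may be background. A level of 1 probe set is not set against that of another, since probe sets differ in how strongly they bind. Array medians lay between 5.157 and 5.211, and the SD over genes of the difference between the 2 arrays of a group ran from 0.193 to 0.416 over the groups. The cell type labels were checked on marker genes. In OPC all 7 of a list of OPC markers lay above the median of all values, among them Olig1 (13.95 ± 0.13, SD, n = 2) and Olig2 (12.27 ± 0.05). Sox10 was at 6.44 ± 0.01 there, little above its means of 6.15 to 6.33 in the other groups. Summed signals of the neural stem, astrocyte, mature oligodendrocyte and neuron marker lists were also highest in OPC. Examples are Aldoc at 13.55 ± 0.04, Cnp at 12.68 ± 0.05 and Map2 at 11.23 ± 0.17. In NSC 3 of 8 neural stem markers lay above the median of all values, with Nes at 8.26 ± 0.15 but the stem cell factor Sox2 at 5.60 ± 1.69 and Prom1 at 4.11 ± 0.61, and all 8 of a list of fibroblast and pericyte markers lay above it. In AST 5 of 8 astrocyte markers did, with Gja1 at 11.74 ± 0.09 and Slc1a3 at 6.58 ± 0.34 but Gfap at 5.57 ± 0.22, Slc1a2 at 4.70 ± 0.42, Aqp4 at 4.94 ± 0.19 and Aldh1l1 at 4.39 ± 0.12. Astrocyte markers above it numbered 4 of 8 in NSC and 6 of 8 in OPC. The log2 of the summed astrocyte marker signal was 11.80 to 11.92 in AST, 12.19 to 12.32 in NSC and 13.86 to 13.88 in OPC. Of 7 astrocyte markers tested, 0 passed an adjusted p of 0.05 in AST over NSC, where 30.4% of all genes passed. In OPC over AST 5 were higher and 1 lower, where 26.1% of all genes were higher and 25.6% lower. Of the fibroblast and pericyte markers, 5 of 8 lay above the median in AST. The OPC, NSC and AST arrays are named here by their labels. These are bulk RNA samples, in which fewer cells of a kind and less RNA per cell cannot be told apart.

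**Figure D1:**
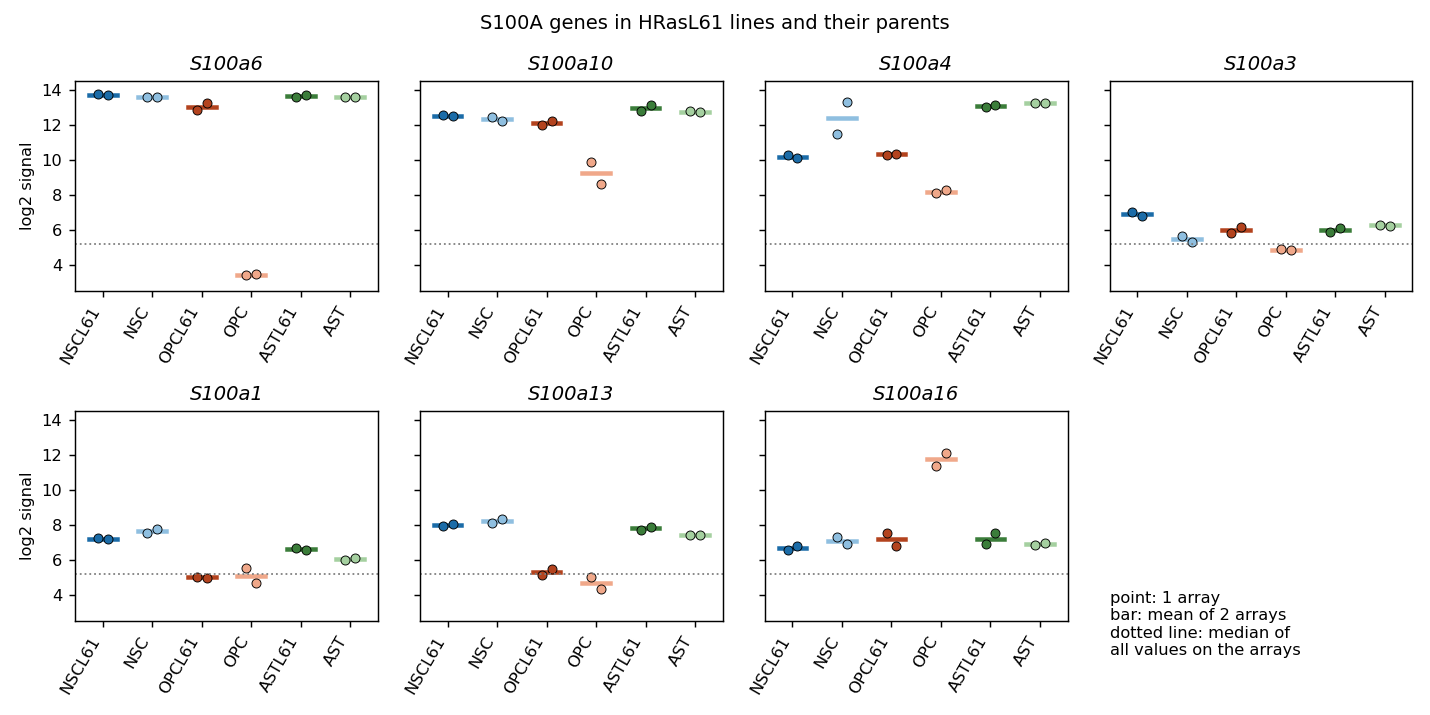
Log2 signal of the 7 S100A genes in each array, 1 panel per gene, with each HRasL61 line left of its parent. Points are arrays, bars are means of 2 arrays, and the dotted line is the median of all values, 5.183. S100a6 lay above 12.8 in 5 groups and near 3.4 in OPC, and S100a16 stood above 11 in OPC alone.

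S100a6 (calcyclin), a growth-associated member that binds annexin A11 and the calcyclin-binding protein, was the member with the widest span over the groups. Its probe set read 12.84 and 13.23 in OPCL61, against 3.38 and 3.49 in OPC. It read 13.73 and 13.72 in NSCL61, against 13.59 and 13.59 in NSC. It read 13.56 and 13.71 in ASTL61, against 13.58 and 13.60 in AST. The 2 OPC arrays thus lay under the median of all values, where a signal may be background, and the other 10 lay far above it. The highest value of any probe set was 14.33, and whether signals near it still follow transcript amounts was not tested. The largest gap between 2 group means was 10.29, and 1 tested gene of the 12835 had a larger one. From the top, the order of means was NSCL61, ASTL61, AST, NSC, OPCL61 and OPC, and ASTL61, AST and NSC overlapped as neighbours.

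S100a10 (p11), which has lost calcium binding and forms a fixed complex with annexin A2, had 3 probe sets, and all 3 were lowest in OPC. The brightest, 1416762_at, read 12 and 12.19 in OPCL61, against 9.85 and 8.62 in OPC. It read 12.54 and 12.50 in NSCL61, against 12.44 and 12.20 in NSC, and 12.76 and 13.13 in ASTL61, against 12.79 and 12.72 in AST. The OPC arrays were far apart, yet both lay below every other array. 1456642_x_at, some of whose probes may match other transcripts by its suffix, was also lowest in OPC, with 11.50 and 11.58 in OPCL61, against 9.59 and 8.25 in OPC. The dim 1439348_at read 5.71 and 5.84 in OPCL61, against 4.64 and 4.38 in OPC, where it may be background. It differed from the other pair in the astrocyte cells, with 6.22 and 6.62 in ASTL61, against 7.04 and 7.42 in AST.

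S100a4 (metastasin), which binds non-muscle myosin and is also known as a fibroblast-specific protein, varied in both directions. It read 10.26 and 10.10 in NSCL61, against 11.48 and 13.31 in NSC. It read 10.29 and 10.33 in OPCL61, against 8.08 and 8.26 in OPC. It read 13.02 and 13.15 in ASTL61, against 13.24 and 13.26 in AST. The 2 NSC arrays were the least alike of any pair for S100a4, and 1 of them lay just above both AST arrays. In order, AST led, followed by ASTL61, NSC, OPCL61, NSCL61 and OPC, and ASTL61 and NSC overlapped. The promoter window of S100a4 is shown because a TATA word begins at position -31 from the start. The letters are those of RefSeq on GRCm38.p6, chr3:90603520-90603819 on the plus strand, from 250 bases before the start to 50 after it, with the TATA word in capitals.
S100a4: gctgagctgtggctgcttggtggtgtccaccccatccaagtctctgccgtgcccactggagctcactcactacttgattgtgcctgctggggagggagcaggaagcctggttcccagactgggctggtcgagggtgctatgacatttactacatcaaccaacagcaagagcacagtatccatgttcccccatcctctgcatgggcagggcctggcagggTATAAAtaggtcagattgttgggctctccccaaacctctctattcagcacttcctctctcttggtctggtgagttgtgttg

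The S100a6 window is set beside it, since its transcript spanned the widest range while S100a4 lies 2 genes before it on the chromosome. It covers chr3:90612644-90612943 of GRCm38.p6 on the plus strand, and capitals mark its 6 CpG dinucleotides, against a median of 7 over 32851 windows of the same length.
S100a6: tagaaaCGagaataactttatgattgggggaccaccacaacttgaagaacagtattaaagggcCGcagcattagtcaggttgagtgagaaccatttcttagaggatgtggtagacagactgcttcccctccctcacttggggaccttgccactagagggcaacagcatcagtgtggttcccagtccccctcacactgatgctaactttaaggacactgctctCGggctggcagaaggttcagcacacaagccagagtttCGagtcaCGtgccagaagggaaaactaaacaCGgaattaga
On neither strand did the S100a6 window hold any of 5 short words searched. The AP-1 word, TGANTCA, was found in 7.81% of all windows and the TEAD word, GGAATG, in 14.7%. The ETS word, CCGGAA, which shares letters with the TEAD word, was found in 14.9%. The GC box, GGGCGG, was found in 35.7% and the TATA word, TATAAA, in 13.6%. S100a4 had the TATA word and 2 CpG dinucleotides. The table held 11 windows for 7 of the 8 genes, several for S100a3 and S100a16. An AP-1 word was found at position -192 from a start of S100a16 and at -136 and -38 from that of S100a11. These matches describe letters and are not evidence of binding.

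S100a3, a member known from the cuticle of hair, did not exceed 7.02 in any array. It read 7.02 and 6.77 in NSCL61, against 5.66 and 5.27 in NSC. It read 5.81 and 6.16 in OPCL61, against 4.87 and 4.81 in OPC. It read 5.87 and 6.10 in ASTL61, against 6.29 and 6.20 in AST. NSCL61 stood highest and OPC lowest, where the signal may be background, and ASTL61 and OPCL61 overlapped in between.

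S100a1, known from calcium handling in heart muscle, and S100a13, which takes part in the release of FGF1, followed similar orders and are neighbours. 1419814_s_at of S100a1 read 7.27 and 7.17 in NSCL61, against 7.56 and 7.76 in NSC. It read 6.67 and 6.57 in ASTL61, against 6.02 and 6.09 in AST, and 5.04 and 4.96 in OPCL61, against 5.51 and 4.66 in OPC. The means fell in the order NSC, NSCL61, ASTL61, AST, OPC and OPCL61, and the last pair overlapped near background. The dimmer 1417421_at read 5.97 and 5.67 in NSCL61, against 5.91 and 6.40 in NSC, and lay between 4.39 and 5.28 in the other 4 groups. S100a13 read 7.96 and 8.03 in NSCL61, against 8.11 and 8.36 in NSC. It read 7.69 and 7.90 in ASTL61, against 7.44 and 7.43 in AST, and 5.12 and 5.45 in OPCL61, against 5.03 and 4.35 in OPC. The OPC cells and their line were thus apart from the other 4 groups for both genes. Across the 12 arrays the 2 genes had a Pearson correlation of 0.926, a description of arrays that share groups.

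The S100a13 window is shown because it also holds the start of S100a1 on the opposite strand. The 2 starts lie 105 bases apart and their windows share 204 bases. The sequence is chr3:90514185-90514484 of GRCm38.p6 on the plus strand, and the 105 capitals run from the S100a1 start to the S100a13 start.
S100a13: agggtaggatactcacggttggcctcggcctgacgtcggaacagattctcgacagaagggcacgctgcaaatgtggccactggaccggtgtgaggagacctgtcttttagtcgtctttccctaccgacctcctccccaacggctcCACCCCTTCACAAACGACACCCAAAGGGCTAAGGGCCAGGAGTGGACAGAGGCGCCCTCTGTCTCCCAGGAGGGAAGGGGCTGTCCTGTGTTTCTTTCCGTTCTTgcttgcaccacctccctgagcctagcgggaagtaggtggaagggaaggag
Neither window of this pair held any of the 5 words. They held 14 and 11 CpG dinucleotides for S100a13 and S100a1.

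S100a16, a broadly expressed member, ran the other way from the rest. 1425560_a_at read 7.54 and 6.82 in OPCL61, against 11.39 and 12.13 in OPC. It read 6.54 and 6.79 in NSCL61, against 7.32 and 6.88 in NSC, and 6.89 and 7.52 in ASTL61, against 6.87 and 6.98 in AST. Both OPC arrays stood far above the other 10, among which ASTL61, OPCL61, NSC and AST overlapped as neighbours and NSCL61 lay below. The second probe set, 1447676_x_at, read 5.25 and 4.33 in OPCL61, against 9.69 and 10.52 in OPC, and between 3.82 and 5.02 in the other 4 groups. Outside OPC its means may be background, and by its suffix some of its probes may match other transcripts.

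The comparison of OPCL61 with OPC asks what differed once oligodendrocyte precursors carried HRasL61. In this line S100a6, S100a10, S100a4, S100a3 and S100a13 rose and S100a16 fell. Thus 6 of 7 members passed the test, 5 higher and 1 lower, where 48.5% of all genes passed, 24.5% higher and 23.9% lower. The median difference of the 7 was 1.14, against 0.05 over all genes. S100a6 rose by 9.60 ± 0.14 (adjusted p = 6.25e-10), which may be a lower bound because its OPC signal may be background. S100a10 rose by 2.86 ± 0.32 (adjusted p = 8.41e-05), and its other probe sets rose by 2.62 and 1.27. S100a4 rose by 2.14 ± 0.44 (adjusted p = 0.00299), and S100a3 rose by 1.14 ± 0.17 (adjusted p = 0.000531) from a signal in OPC that may be background. S100a16 fell by 4.58 ± 0.32 (adjusted p = 4.42e-06). Its second probe set fell by 5.31 ± 0.36, to an OPCL61 mean of 4.79 that may be background.

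S100a13 was the smallest of the 6 changes, at 0.60 ± 0.21 (adjusted p = 0.0427), with an OPC mean of 4.69 that may be background. Its difference was 0.94 without OPC array 1, 0.26 (adjusted p = 0.321) without OPC array 2 and 0.43 (adjusted p = 0.216) without OPCL61 array 2. The call was also lost with array weights (adjusted p = 0.0676) and in a fit of only the groups compared (0.139). S100a1 differed by -0.08 (95% interval -0.59 to 0.42), with 0.34 when OPC array 1 was left out and -0.51 (adjusted p = 0.0233) when OPC array 2 was left out. In OPCL61 6 of 7 OPC markers also fell, and the log2 of their summed signal was 10.04 to 10.63 in OPCL61, against 14.78 to 15.01 in OPC. The part of that loss in the S100A differences was not tested. Of the fibroblast and pericyte markers, 3 of 8 lay above the median of all values in OPCL61 and 1 of 8 in OPC. Their log2 summed signal was 8.17 to 8.93 in OPCL61, against 7.10 to 7.25 in OPC. In the test 1 of the 8 rose, 0 fell and 7 did not pass. Col3a1 differed most, at 7.52 ± 0.85 in OPCL61 and 4.21 ± 0.27 in OPC. The part of these markers in the S100a4 rise was not tested.

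NSCL61 compared with NSC asks the same of neural stem cells, and there only S100a3 and S100a4 passed the test among the 7. That is 2 of 7 members, 1 higher and 1 lower, where 37.8% of all genes passed, 20.7% higher and 17.1% lower. The median of the 7 was -0.24, against 0.04 over all genes. S100a3 rose by 1.43 ± 0.17 (adjusted p = 0.000208). S100a4 fell by 2.22 ± 0.44 (adjusted p = 0.00355). The size of the S100a4 fall rests on the unlike NSC arrays, at -3.13 without NSC array 1 and -1.30 without NSC array 2. S100a6 differed by 0.13 (95% interval -0.17 to 0.44), S100a10 by 0.20 (-0.52 to 0.92), S100a13 by -0.24 (-0.72 to 0.24), S100a1 by -0.44 (-0.95 to 0.07) and S100a16 by -0.44 (-1.16 to 0.28). None of these 5 passed.

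The fibroblast and pericyte markers moved with S100a4 in this comparison. Their log2 summed signal was 8.76 to 9.07 in NSCL61, against 14.98 to 15.11 in NSC, and 7 of 8 fell, Col1a1 among them, at 4.31 ± 0.60 in NSCL61 and 12.77 ± 0.23 in NSC. Their part in the fall of S100a4 was not tested. Of these markers, 3 of 8 lay above the median of all values in NSCL61 and 8 of 8 in NSC, while S100a6 averaged 13.72 in NSCL61 and 13.59 in NSC, and S100a10 12.52 and 12.32.

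In ASTL61 compared with AST no member passed limma's test. The count was 0 of 7, where 0.0234% of all genes passed, and 1 of 7 had an unadjusted p under 0.05. That member was S100a1, at 0.57 ± 0.23 (95% interval 0.06 to 1.08, unadjusted p = 0.033, adjusted p = 0.638). The other 6 ran from -0.26 for S100a3 to 0.36 for S100a13. S100a4 differed by -0.17 (-1.15 to 0.82), S100a6 by 0.05 (-0.26 to 0.35) and S100a10 by 0.19 (-0.53 to 0.91), where the dim S100a10 probe set gave -0.81. The median of the 7 was 0.19, against 0.00 over all genes. Among 8 fibroblast and pericyte markers 0 passed, with a median of 0.71, and 4 were higher at an unadjusted p under 0.05 in limma. S100a4, at -0.17, did not rise with them, and their part in its level was not tested.

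**Figure D2:**
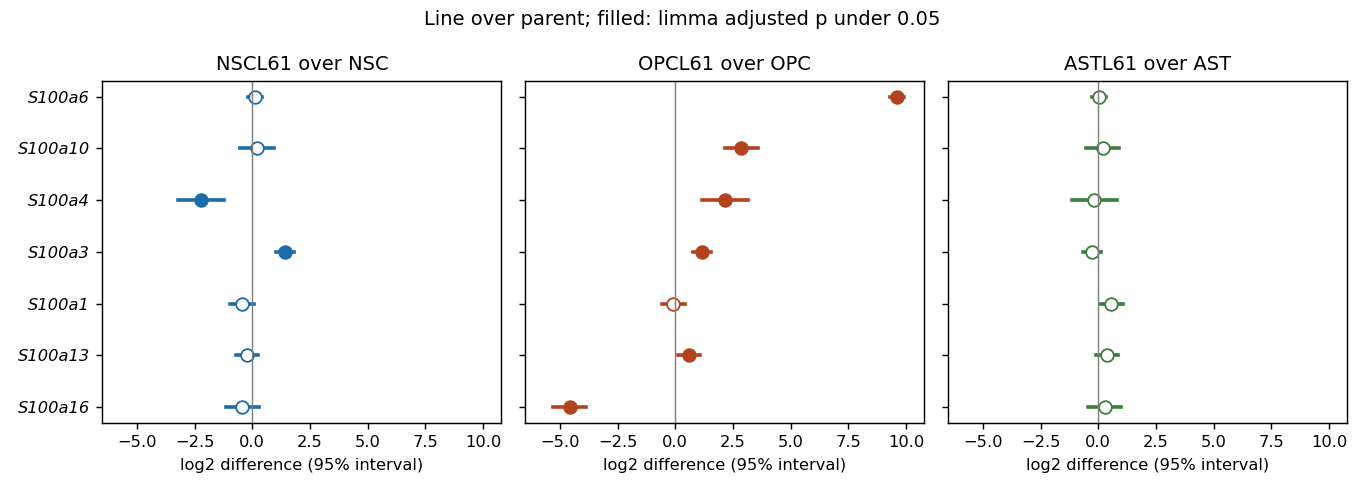
Log2 difference of each HRasL61 line over its parent for the 7 S100A genes, with 95% intervals from limma on the horizontal axis. Filled points passed an adjusted p of 0.05, which 2 genes did in NSCL61, 6 in OPCL61 and 0 in ASTL61.

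Whether the lines differed in their changes was tested by contrasts of the changes themselves. The OPCL61 change exceeded the NSCL61 change for S100a6 by 9.47 ± 0.19 (adjusted p = 1.38e-08), S100a4 by 4.36 ± 0.62 (adjusted p = 0.000543) and S100a10 by 2.66 ± 0.45 (adjusted p = 0.00153). For S100a16 the contrast was -4.14 ± 0.45 (adjusted p = 0.000107). These 4 of 7 compare with 37.9% of all genes. The OPCL61 change also differed from the ASTL61 change in 5 of 7 members, against 35.4% of all genes. Those were S100a6 at 9.56 ± 0.19, S100a10 at 2.67 ± 0.45, S100a4 at 2.31 ± 0.62, S100a3 at 1.40 ± 0.25 and S100a16 at -4.86 ± 0.45. S100a4 had an adjusted p of 0.018 there, and 0.0521 without OPC array 1 or 0.0531 without AST array 2. The ASTL61 change differed from the NSCL61 change in 3 of 7, against 25.3% of all genes. S100a3 gave -1.69 ± 0.25 (adjusted p = 0.00109). S100a4 gave 2.05 ± 0.62 (adjusted p = 0.0387) and S100a1 gave 1.01 ± 0.32 (adjusted p = 0.0457), and both of these calls were weak. That of S100a1 was lost when any of the 8 arrays concerned was left out, and that of S100a4 when any but the NSC arrays was. Without NSC array 2 the S100a4 contrast was 1.13. Of the 8 fibroblast and pericyte markers, 7 were higher in the OPCL61 change minus the NSCL61 change (median 7.13, against 0 over all genes). In the ASTL61 change minus the NSCL61 change 7 were higher too (median 7.06, against -0.05 over all genes). The part of these markers in the S100a4 contrasts was not tested.

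The parental cell types were compared to show the levels from which the lines started. OPC differed from NSC in all 7 members, 6 lower and 1 higher, where 51.5% of all genes passed, 24.3% lower and 27.2% higher. The median of the 7 was -3.09, against -0.01 over all genes. S100a6 differed by -10.15 ± 0.14, S100a4 by -4.22 ± 0.44, S100a13 by -3.55 ± 0.21, S100a10 by -3.09 ± 0.32 and S100a1 by -2.58 ± 0.23. S100a3 was lower in OPC by a smaller amount, at -0.63 ± 0.17 (adjusted p = 0.0136), and its call was lost without NSC array 1 or OPC array 2. S100a16 was higher in OPC, by 4.66 ± 0.32 (adjusted p = 2.31e-06). All 8 fibroblast and pericyte markers were also lower in OPC, with a median of -7.56 and a log2 summed signal of 7.10 to 7.25 in OPC and 14.98 to 15.11 in NSC. Their part in these differences was not tested.

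OPC compared with AST gave the same 6 members lower and S100a16 higher, where 51.7% of all genes passed, 25.6% lower and 26.1% higher, and this comparison shares the OPC arrays with the last one. S100a6 differed by -10.16 ± 0.14, S100a4 by -5.08 ± 0.44, S100a10 by -3.52 ± 0.32, S100a13 by -2.74 ± 0.21 and S100a3 by -1.40 ± 0.17. S100a1 differed by -0.97 ± 0.23, and by -0.54 without OPC array 2. S100a16 was higher in OPC by 4.84 ± 0.32. Both sets of values rest in part on OPC signals that may be background for S100a6, S100a13, S100a3 and S100a1. Of the 8 fibroblast and pericyte markers, 4 were also lower in OPC than in AST and 4 did not pass, with a median of -3.24. Their log2 summed signal was 7.10 to 7.25 in OPC and 12.81 to 13.44 in AST. The part of these markers in the differences between OPC and AST was not tested.

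AST differed from NSC in 3 of 7 members, 1 higher and 2 lower, where 30.4% of all genes passed, 15.4% higher and 15% lower. S100a1 was lower in AST, at -1.61 ± 0.23 (adjusted p = 0.000952). S100a13 was lower too, at -0.81 ± 0.21 (adjusted p = 0.0193), and S100a3 was higher, at 0.78 ± 0.17 (adjusted p = 0.00918). The S100a3 call was lost without NSC array 2 (adjusted p = 0.0608) or AST array 1 (0.057), and that of S100a13 without NSC array 2 (0.102) or either AST array (0.0798 and 0.0881). S100a6 differed by 0.00 (95% interval -0.30 to 0.31). S100a4 differed by 0.85 ± 0.44 (adjusted p = 0.178), with -0.06 when NSC array 1 was left out and 1.77 (adjusted p = 1e-04) when NSC array 2 was. S100a10 differed by 0.43 ± 0.32 in its brightest probe set and by 1.35 (adjusted p = 0.000729, over 34945 probe sets) in its dimmest, so its probe sets gave different calls. In the same comparison 7 of 8 fibroblast and pericyte markers were lower in AST and 0 higher, with a median of -2.21, against 0.02 over all genes. They did not move with S100a4 here, whose difference of 0.85 did not pass. The part of these markers in the differences between AST and NSC was not tested.

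The lines were then set against each other. OPCL61 differed from NSCL61 in 4 of 7 members, all lower, where 26.7% of all genes passed, 13.4% lower. S100a13 differed by -2.71 ± 0.21 and S100a1 by -2.22 ± 0.23. S100a3 differed by -0.91 ± 0.17 and S100a6 by -0.69 ± 0.14 (adjusted p = 0.00535). S100a4 was at 10.31 in OPCL61 and 10.18 in NSCL61, a difference of 0.13 (95% interval -0.85 to 1.12), after changes in opposite directions in the 2 lines.

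OPCL61 differed from ASTL61 in 4 of 7 members, all lower, where 36.6% of all genes passed, 17.7% lower. S100a4 differed by -2.77 ± 0.44, S100a13 by -2.51 ± 0.21, S100a1 by -1.62 ± 0.23 and S100a6 by -0.60 ± 0.14. The S100a6 call was lost in a fit of only the groups compared (adjusted p = 0.0869). ASTL61 differed from NSCL61 in 2 of 7, 1 higher and 1 lower, where 32.7% of all genes passed, 16.1% higher and 16.6% lower. S100a4 was higher in ASTL61 by 2.90 ± 0.44 (adjusted p = 0.001), and S100a3 was lower, at -0.91 ± 0.17 (adjusted p = 0.00356). The fibroblast and pericyte markers moved with S100a4 between the lines. Of the 8, 6 were lower in OPCL61 than in ASTL61 (median -3.32) and 6 higher in ASTL61 than in NSCL61 (median 3.00), and the log2 summed signal was 13.78 to 13.91 in ASTL61. Their part in these S100a4 differences was not tested. S100a16, highest of all in OPC, did not pass between any pair of lines, with differences of 0.52, -0.02 and 0.54. The probe sets of S100a10 gave different calls. The brightest differed by -0.85 in OPCL61 over ASTL61 and by 0.42 in ASTL61 over NSCL61, and neither it nor 1456642_x_at passed. The dim 1439348_at gave -0.65 (limma adjusted p = 0.0238) and 0.89 (0.00529), adjusted over 34945 probe sets.

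Of 11 other S100 genes listed, 3 were tested. S100a5, which lies between S100a4 and S100a6, read 7.25 and 7.13 in NSCL61, against 5.19 and 4.84 in NSC, a rise of 2.18 ± 0.18 (adjusted p = 2.05e-05). It rose by 0.95 ± 0.18 (adjusted p = 0.002) in OPCL61, where it read 4.79 and 5.35, against 4.12 and 4.12 in OPC. S100a8, a subunit of calprotectin in myeloid cells, read 7.15 and 6.96 in OPCL61, against 3.62 and 3.58 in OPC, a rise of 3.46 ± 0.25 (adjusted p = 5.06e-06). It rose by 1.22 ± 0.25 (adjusted p = 0.00392) in NSCL61, with 5.38 and 4.62 there, against 3.62 and 3.93 in NSC. S100b read 5.18 and 5.25 in OPCL61, against 9.43 and 10.21 in OPC. That was a fall of 4.61 ± 0.21 (adjusted p = 2.96e-07), of about the size that S100a16 showed, to a level near the median of all values. The second probe set of S100b differed by -6.74, with an OPCL61 mean of 3.02 that may be background. S100a8 averaged above the median of all values in OPCL61 alone, through which it passed the filter, so its rise there draws on that selection. Its means in NSCL61 and NSC, and those of S100a5 in OPCL61, OPC and NSC, lay under that median, so both sides of the S100a8 rise in NSCL61 and of the S100a5 rise in OPCL61 may be background. Of 7 microglia and macrophage markers, 2 lay above the median of all values in OPCL61 and 1 in OPC, with a log2 summed signal of 8.19 to 8.50 in OPCL61 and 7.13 to 7.17 in OPC. Cd68 averaged 7.56 in OPCL61 and 4.34 in OPC, and Csf1r 6.17 and 5.95. The rest of that list lay under the median of all values in both groups. The part of these markers in the S100a8 rise was not tested. None of the 3 passed limma's test in ASTL61 compared with AST, where 0.0234% of all genes passed, and none had an unadjusted p under 0.05. S100a9, the calprotectin partner of S100a8, and S100a14, S100a7l2 and S100g lay at or below 4.51 in every array and were not tested.

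Proteins that S100 members bind, and receptors for secreted S100 proteins, were listed as 24 genes, of which 19 were tested. In OPCL61 9 were higher and 1 lower, and 9 did not pass, where 48.5% of all genes passed, 24.5% higher and 23.9% lower. The median was 0.39, against 0.05 over all genes. The 3 largest rises were those of Anxa1, Ahnak and Anxa2. Anxa1, the partner of S100A11, rose by 8.73 ± 0.17 (adjusted p = 2.95e-09), and Anxa2, the partner of S100A10, by 6.23 ± 0.28 (adjusted p = 3.35e-07). Ahnak, a giant scaffold protein that joins the S100A10 and annexin A2 complex, rose by 6.71 ± 0.22 (adjusted p = 6.04e-08). The means of Anxa2 were 13.15 in OPCL61 and 6.92 in OPC, while those of Anxa1 and Ahnak in OPC, 3.78 and 3.24, may be background.

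In NSCL61 3 of the 19 partners were higher and 6 lower, where 37.8% of all genes passed, 20.7% higher and 17.1% lower. The median was 0.13, against 0.04 over all genes. Anxa1 fell by 1.45 ± 0.17 (adjusted p = 0.000185), Dlc1 by 2.44 ± 0.33 (adjusted p = 0.000411) and the innate immune receptor Tlr4 by 0.80 ± 0.14 (adjusted p = 0.00163). In ASTL61 none of the 19 passed limma's test, where 0.0234% of all genes passed, and none had an unadjusted p under 0.05. The smallest p belonged to Plat, tissue plasminogen activator, at 0.82 ± 0.38 (adjusted p = 0.697).

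**Figure D3:**
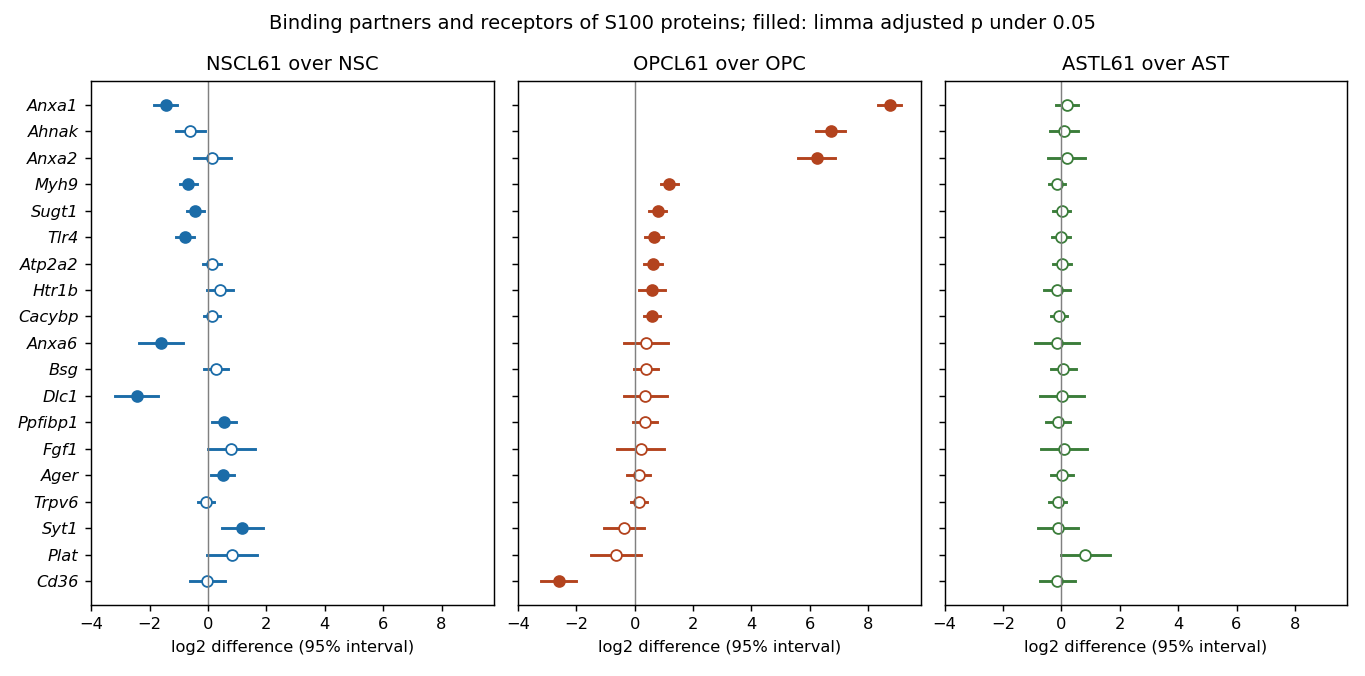
Log2 difference of each line over its parent, with 95% intervals from limma, for the 19 tested binding partners and receptors of S100 proteins. Filled points passed an adjusted p of 0.05. Anxa1, Ahnak and Anxa2 stand apart on the right in OPCL61, at 8.73, 6.71 and 6.23, and no point is filled in ASTL61.

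Other EF-hand proteins were listed as 29 genes, of which 21 were tested. In OPCL61 10 were higher and 4 lower, where 48.5% of all genes passed, 24.5% higher and 23.9% lower. Among them were the mitochondrial Efhd1 (-4.18 ± 0.15), the neuronal sensor Hpcal1 (1.95 ± 0.11) and nucleobindin 2, Nucb2 (1.84 ± 0.16). The Efhd1 mean of 3.89 in OPCL61, against 8.07 in OPC, may be background. The medians of the 21 were 0.50 in OPCL61 over OPC, against 0.05 over all genes, and -0.13 in NSCL61 over NSC, against 0.04. In NSCL61 1 was higher and 7 were lower, where 37.8% of all genes passed, 20.7% higher and 17.1% lower. The share of the list in both directions together was near that of all genes. The myosin light chain Myl9, a contractile gene, fell by 7.73 ± 0.56 (adjusted p = 8.45e-06), with means of 4.89 in NSCL61, which may be background, and 12.62 in NSC, and the reticulocalbin Rcn1 fell by 1.91 ± 0.14, while Hpcal1 rose by 1.04 ± 0.11. In ASTL61 none of the 21 passed limma's test or had an unadjusted p under 0.05, where 0.0234% of all genes passed. Rcn3 had the smallest p, at 1.19 ± 0.57 (adjusted p = 0.709).

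The genes whose levels most resembled each member were taken by Pearson correlation over the 12 arrays, which share the 6 groups, so these values describe the pattern and carry no p. S100a6 was closest to the chloride channel protein Clic1 (0.996), the actin-capping protein Capg (0.995) and Ahnak (0.995). Capg averaged 9.66 in OPCL61 and 3.40 in OPC, and like S100a6 it lay under the median of all values in OPC alone. S100a10 was closest to lamin A, Lmna (0.983), Map2k3 (0.982) and Inf2 (0.982), and S100a4 to the receptor subunit Il17rc (0.990), 9130401M01Rik (0.983) and Arhgap10 (0.982). S100a16 was closest to Dpp10 (0.994), Frrs1l (0.991) and the glial transcription factor Sox8 (0.991). Sox8 averaged 9.07 in OPC and 4.29 in OPCL61, which may be background. Dpp10, Frrs1l and Sox8 each averaged above the median of all values in OPC alone, through which they passed the filter. Their likeness to S100a16 draws on that selection.

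S100a13 was closest to Vamp8 (0.986), Cmtm7 (0.985) and Prorsd1 (0.984), and S100a1 to Phyh (0.983), Chst14 (0.977) and Eva1b (0.975). S100a3 was closest to Gnb1 (0.978), Csrnp1 (0.965) and Eif2b2 (0.964). Among the members, S100a6 and S100a10 had a correlation of 0.961. S100a16 had -0.985 with S100a6 and -0.953 with S100a10. Correlations among S100a6, S100a10 and S100a16 rest largely on the OPC arrays, which stood apart from all others for each gene. S100a1 had 0.360 with S100a3.

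In the RefSeq order of chromosome 3, S100a1, S100a13, S100a16, S100a3, S100a4 and S100a6 share 1 stretch, and S100a11 and S100a10 lie in another. Within the first stretch S100a16 lies between S100a13 and S100a3, and it fell in OPCL61 while those 2 rose. The S100a13 rise, at 0.60, was weak, with 0.26 when OPC array 2 was left out. The OPC signals of S100a13 and S100a3 may be background. S100a14, which was not tested, lies between S100a13 and S100a16. The nearest tested genes outside the S100 family were Ilf2, Snapin and Chtop, all on the S100a1 side. Chtop, an RNA export factor, fell by 1.03 ± 0.11 (adjusted p = 4.96e-05) in OPCL61 compared with OPC, and Snapin, a SNARE-associated protein, fell by 0.48 ± 0.13 (adjusted p = 0.0157). Ilf2, which binds double-stranded RNA in a complex, differed by -0.25 ± 0.12 (adjusted p = 0.117). In NSCL61 compared with NSC, Ilf2 rose by 0.74 ± 0.12 (adjusted p = 0.00132), and Snapin and Chtop did not pass, at -0.32 and 0.27. None of the 5 nearest annotated genes on either side of the S100a11 and S100a10 stretch was tested.

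**Figure D4:**
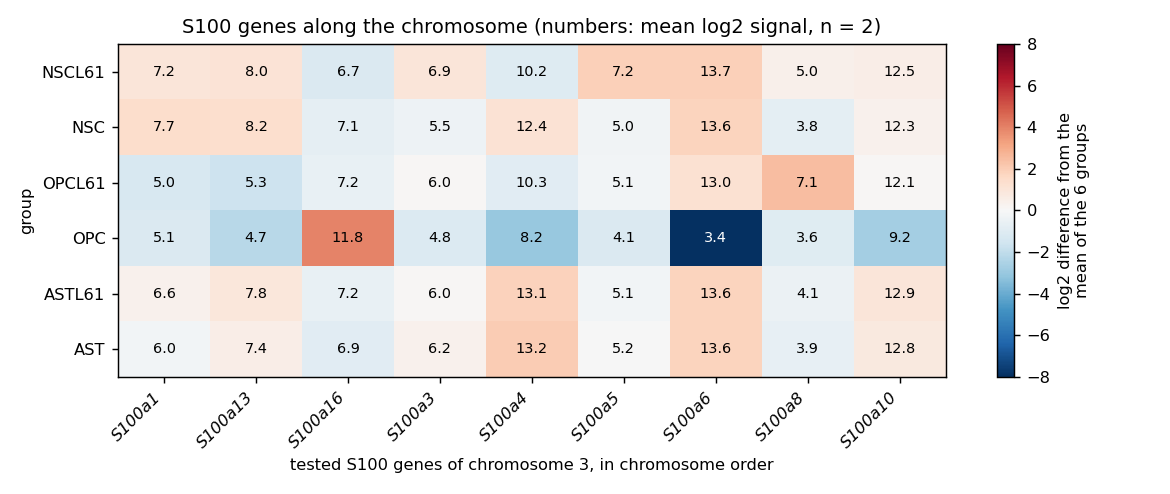
Tested S100 genes of chromosome 3 in chromosome order from left to right, with each line above its parent. Numbers are mean log2 signals (n = 2), and colour is the log2 difference from the mean of the 6 groups. The OPC row is low for S100a6 and S100a10 and high for S100a16, which lies among genes that are low there.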

How the data were processed

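RNA of 12 samples was hybridised to oligonucleotide arrays. The authors' deposited values are log2 signals for 45101 probe sets, and how background was removed and arrays were normalised is not given in the sources used here. Groups came from the sample titles. Gene symbols came from the platform annotation, and probe sets with no symbol, several symbols or an array control were left out. Probe sets averaging above 5.183 (the median of all values) in 1 or more groups were kept, and each of the 12835 genes left was read from its brightest kept probe set. All arrays were fitted as 6 group means in limma 3.58.1 (R 4.3.3, with data.table, version 1.17.8), with 6 residual and 9.302 total degrees of freedom, moderated tests, Benjamini-Hochberg adjustment over all genes and a threshold of 0.05. The 12 comparisons are contrasts of these means. The model was tested on simulated data. The number of arrays limits the precision. Promoter windows and gene order are those of RefSeq on GRCm38.p6, searched with Python 3.11.15, and figures were drawn with matplotlib 3.10.9.

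The members and gene lists were chosen with earlier results of these data known. The text names all members and other S100 genes, up to 3 members of each list with the smallest p past the threshold (or the smallest p where none passed), the 3 genes outside the S100 family most correlated with each member, the tested genes among the 5 nearest on each side, and markers beside results. Alternatives were other normalisations, filters and probe set rules, array weights, a robust prior with a trend, a block for the replicate number, fits of only the groups compared, a fold change of at least 2 and leaving out each array. Transcripts of the introduced and the disrupted gene are not reported here.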

Additional observations from a re-analysis of the deposited data

Results flagged for a closer look

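These results stand out because the change of 1 line over its parent differed from that of another line by a test of the difference itself, in limma with p adjusted over 12835 genes. All are log2 differences. Between the OPCL61 and NSCL61 changes they were 9.47 for S100a6, 4.36 for S100a4, 2.66 for S100a10 and -4.14 for S100a16. Between the OPCL61 and ASTL61 changes they were 9.56 for S100a6, 2.67 for S100a10, 2.31 for S100a4, 1.40 for S100a3 and -4.86 for S100a16. Between the ASTL61 and NSCL61 changes they were 2.05 for S100a4, 1.01 for S100a1 and -1.69 for S100a3. The 3 contrasts share groups pairwise, so they are not independent of each other. Groups of 2 arrays are too small to test single arrays as outliers.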

How the results depend on the processing

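Limits first: 2 arrays per group and signals under 5.183 restrict what can be said of the OPC levels of S100a6, S100a3, S100a13 and S100a1, and nothing in the files gives detection per probe set. In the 3 line-over-parent comparisons S100a6, S100a10, S100a4, S100a3 and S100a16 kept their direction and their call in OPCL61 under every alternative that tested them, as S100a3 and S100a4 did in NSCL61. The count of members past the threshold went to 1 for NSCL61 over NSC with a filter at the 75th percentile (7.562), where S100a3 was not tested. It went to 1 for ASTL61 over NSCL61 with that filter and with a fold change of at least 2, to 1 for AST over NSC with the fold change, and to 2 for OPCL61 over NSCL61 with it. Leaving out each array in turn gave 1 to 3 for AST over NSC and 1 to 2 for the ASTL61 change minus the NSCL61 change. It gave 5 to 6 for OPCL61 over OPC, 6 to 7 for OPC over NSC, and 4 to 6 for the OPCL61 change minus either other change. The other counts stayed within 1.5 times under all alternatives run. S100a13 in OPCL61 over OPC missed the threshold with the replicate block (adjusted p = 0.0565), with array weights (0.0676) and in a fit of only the groups compared (0.139). In that last fit S100a6 in OPCL61 over ASTL61 missed it too (0.0869).

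The sign changed under some alternative for 12 differences, none of them past the threshold there. With quantile normalisation S100a6 in AST over NSC was -0.01, S100a3 in OPCL61 over ASTL61 was 0.02, S100a16 in OPCL61 over ASTL61 was 0.00, and S100a10 in the ASTL61 change minus the NSCL61 change was 0.00. With a gene's probe sets averaged, S100a10 in ASTL61 over AST was -0.13 and S100a16 in OPCL61 over ASTL61 was 0.05. Leaving out each array gave, for AST over NSC, -0.06 to 1.77 for S100a4, -0.40 to 0.04 for S100a16 and -0.01 to 0.01 for S100a6. It gave, for OPCL61 over ASTL61, -0.18 to 0.17 for S100a3 and -0.39 to 0.34 for S100a16, and for ASTL61 over AST, -0.03 to 0.12 for S100a6 and -0.04 to 0.59 for S100a16. S100a1 in OPCL61 over OPC ran from -0.51 to 0.34, and in the OPCL61 change minus the NSCL61 change from -0.07 to 0.78. S100a10 in the ASTL61 change minus the NSCL61 change ran from -0.20 to 0.18, and S100a13 in the OPCL61 change minus the ASTL61 change from -0.11 to 0.57. Apart from the arrays left out, the cause of these shifts was not tested.

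Replicate numbers were not shown to pair the arrays, since deviations of same-numbered arrays correlated between -0.20 and 0.10. With the replicate number as a block, 5 members passed in OPCL61 over OPC, 4 higher and 1 lower, and the count of every other comparison was the same.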
